A study of Mus musculus with 3 samples.

Results

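Among 38722 single cells of arthritic mouse knee synovium that had 200 genes or more and no more than 20% mitochondrial counts, 88 were Il23r/Blk-positive T cells. They were chosen from their own unique molecular identifier (UMI) counts, each UMI standing for 1 captured RNA molecule. A member held at least 2 UMIs of Cd3e, Cd3d and Cd3g together and at least 1 UMI of Il23r or Blk. It held 0 UMIs of Cd4, Cd8b1, Foxp3, Csf1r and Cd79a. Replicates 1, 2 and 3 gave 26, 28 and 34 members, which was 0.218%, 0.242% and 0.223% of their cells (0.228% ± 0.0127, SD, n = 3). Of the 1086 cells that passed the Cd3 step, members made up 6.70%, 8.92% and 8.85% (8.16% ± 1.26, SD, n = 3).

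Il23r encodes the receptor chain that binds interleukin-23 (IL-23), and Blk encodes a Src-family kinase that is used by B cells and by some innate-like T cells. Innate-like T cells that make interleukin-17 (IL-17) leave the thymus already programmed to do so, and respond to IL-1 and IL-23 with little need for antigen. In mice many of them are gamma-delta T cells that settle in barrier tissues and joints, where IL-17 acts on fibroblasts and draws in neutrophils.

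The mice were female wild-type C57BL/6 animals aged 8 weeks in which arthritis was brought on by immunisation and then antibody transfer (C&AIA). They received 100 µg of type II collagen on day 0, 1 mg of antibodies against collagen on day 21 and lipopolysaccharide on day 22. Inflamed knee synovium was taken at the effector phase, and each of the 3 libraries pooled 2 of 6 mice. All libraries form 1 group with no untreated or healthy group, so every comparison below is between cells of the same joints and not between conditions.

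The libraries kept 11919, 11561 and 15242 cells with 99782608 to 116125707 UMIs each before filtering. Cell names are running labels of the same form in every library, and 2588 to 2860 of them occurred in each pair of libraries. Members were of modest depth, with a median of 3658 UMIs per cell and 142245, 137201 and 134869 summed UMIs in replicates 1, 2 and 3. A single replicate 1 member held 38652 of the 142245 UMIs summed there, so CPM of replicate 1 members depend in part on that cell. More than 10000 UMIs were held by 3 of the 88 members. A doublet score of 0.2 or more, from the program Scrublet, was found in 6 members.

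The genes of the rule describe the members and carry no test. Il23r stood at 309, 357 and 386 counts per 1000000 UMIs (CPM) in replicates 1, 2 and 3, and Blk at 387, 699.7 and 704 CPM. Both genes were seen together in 50 members, Il23r alone in 14 and Blk alone in 24. Cd3g, a chain of the T cell receptor complex, was seen in 92.0% of members and Cd3e in 77.3%. Cd163l1, the scavenger receptor gene also known as Scart1, was given as a marker of these cells but took no part in the rule, and 61 of 88 members (69.3%) held it. It was seen in 15 of 26, 22 of 28 and 24 of 34 members of replicates 1, 2 and 3.

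The members next to the limits of the rule were few. Of 6 members with exactly 2 Cd3 UMIs 4 held Cd163l1, and of 16 cells left out with 1 Cd3 UMI 7 did. Of 18 members with a single Il23r or Blk UMI 38.9% held Cd163l1, against 77.1% of the 70 members with more and 3.30% of 212 cells with none. Cells with Il23r or Blk but no Cd3 UMI numbered 84, and 2.38% of them held Cd163l1. Genes of the T cell receptor's own gamma, delta, alpha and beta chains were not analysed here, so the label innate-like rests on the genes below and the cells are called by their rule.

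Markers of other cells were measured in the members as well. Of 8 natural killer (NK) cell markers 7 were at 0 UMIs, Ncr1 and Eomes among them, and the summed level was 0 to 7.29 CPM in the 3 libraries. All 6 mast cell and basophil markers were at 0. Of 7 plasmacytoid dendritic cell markers Siglech, Ccr9 and Cox6a2 were at 0 and the sum was 248 to 647 CPM, and of 8 dendritic cell markers 6 were at 0, Flt3 and Xcr1 among them, with a sum of 0 to 134 CPM. Among 6 B cell markers measured, Cd22 and Fcmr were at 0, and the list summed to 29.2 to 37.1 CPM from 14 UMIs. Most of those were Cd79b, a chain of the B cell receptor complex, with 12 UMIs in 9 members. The 8 fibroblast markers summed to 4099 to 13687 CPM, the 8 neutrophil markers to 2819 to 22719 CPM and the 9 monocyte/macrophage markers to 1209 to 2402 CPM. Lyz2, a phagocyte gene, had a UMI in 83.0% of members and in 91.6% of Cd4-positive T cells. Endothelial markers stood at 794 CPM in replicate 1 and at 270 and 200.2 CPM in replicates 2 and 3. The part of such RNA in the results below was not tested.

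Members also shared a set of genes that the rule did not use. Of Cd163l1, Zbtb16, Il1r1, Sox13 and Maf, all linked to innate-like or IL-17-making T cells, 3 or more were seen in 63 of 88 members (71.6%). The same was true of 4 of 263 Cd4-positive T cells (1.52%), of 5 of 212 T cells with none of the gate genes (2.36%) and of 0 of 59 Cd8b1-positive T cells. All 5 genes were seen together in 19 members. Median depths of the first 3 classes were 3658, 4528 and 3354 UMIs, and the counts are of cells with a UMI. These genes were chosen with earlier results of these data known, and the counts are a description.

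AGGTCA is the DNA core recognised by many nuclear receptors, and the promoters of 4 genes of the IL-17 programme are shown because that core lay in each of them. The windows are the 250 bases before the start site, read 5′ to 3′ on the gene's strand from RefSeq on GRCm38.p6, a build before the one used for the counts. They are chr6:67491856-67492105 on the minus strand for Il23r, chr17:8235793-8236042 on the plus strand for the first of 2 Ccr6 start sites, chr1:20730655-20730904 on the plus strand for Il17a and chr1:20784271-20784520 on the minus strand for Il17f. Capitals mark AGGTCA on either strand, which reads TGACCT where it lies on the other strand.
Il23r: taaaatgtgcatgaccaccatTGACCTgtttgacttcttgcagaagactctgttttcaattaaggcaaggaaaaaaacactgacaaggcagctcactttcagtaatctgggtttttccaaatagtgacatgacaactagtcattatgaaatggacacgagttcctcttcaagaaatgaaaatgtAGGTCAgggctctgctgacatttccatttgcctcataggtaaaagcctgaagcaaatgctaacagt
Ccr6: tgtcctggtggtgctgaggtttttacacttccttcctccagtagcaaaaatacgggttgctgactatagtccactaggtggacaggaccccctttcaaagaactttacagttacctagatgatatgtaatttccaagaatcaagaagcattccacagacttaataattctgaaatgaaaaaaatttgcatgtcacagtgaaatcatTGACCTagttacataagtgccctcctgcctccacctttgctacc
Il17a: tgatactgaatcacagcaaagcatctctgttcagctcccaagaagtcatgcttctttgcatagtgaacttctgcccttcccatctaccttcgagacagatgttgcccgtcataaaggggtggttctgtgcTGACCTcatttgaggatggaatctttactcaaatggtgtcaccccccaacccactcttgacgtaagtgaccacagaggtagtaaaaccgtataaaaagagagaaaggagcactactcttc
Il17f: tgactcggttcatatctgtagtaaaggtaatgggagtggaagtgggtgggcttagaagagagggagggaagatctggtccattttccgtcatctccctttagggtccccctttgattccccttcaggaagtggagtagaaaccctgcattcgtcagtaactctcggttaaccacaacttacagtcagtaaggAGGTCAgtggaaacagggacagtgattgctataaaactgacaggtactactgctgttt
AGGTCA occurred on either strand in 14.02% of 32851 promoter windows of this length. Il23r had 2 matches, the nearer 61 bases before the start, Ccr6 had 1 at 39 bases, Il17a 1 at 115 bases and Il17f 1 at 53 bases. The window at the second Ccr6 start site held none. The windows of Cd163l1, Sox13 and Il1r1 held no AGGTCA, Clnk held 1, and 5830411N06Rik held 1, at 233 bases, at the first of 3 start sites and none at the other 2. A match is a description of these letters and not of a bound site.

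The first comparison asked how the members differ from the Cd4-positive T cells of the same joints, 263 cells with Cd3 and Cd4 UMIs and none of the other genes of the rule. Members carried far more RNA of Cd163l1, of the transcription factor genes Zbtb16 and Sox13, and of the signalling adaptor gene Clnk. They carried less RNA of Cd28, Lck and Themis, which act in T cell receptor signalling, of the type 1 genes Ifng and Nkg7, and of Tnfsf11. UMIs were summed per library and class and tested with edgeR's quasi-likelihood test with the library as a block. Of 4804 genes tested, 178 (3.71%) were called, which needed an adjusted p (Benjamini-Hochberg) under 0.05 together with a log2 fold change of 1 or more in size. Higher in members were 90 (1.87%) and lower 88 (1.83%), and all 178 had their direction in each of the 3 libraries. The 10 genes of the rule were not tested.

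**Figure D1:**
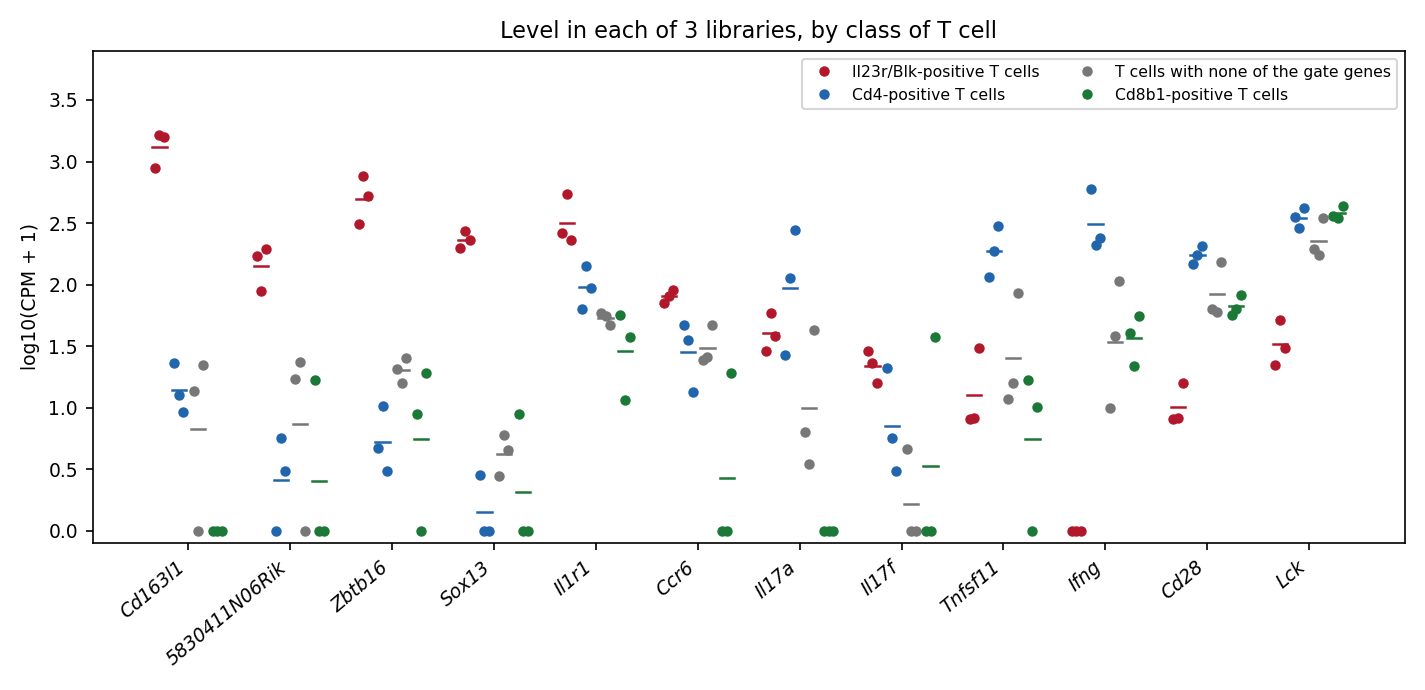
Level of 12 genes in each of the 3 libraries, as log10(CPM + 1) on the vertical axis, in Il23r/Blk-positive, Cd4-positive, gate-gene-negative and Cd8b1-positive T cells; points are libraries in the order replicate 1, 2, 3 and bars are means of the plotted values. Cd163l1 lay at 886 to 1647 CPM in members and at 22.0 CPM or less in the other 3 classes, while Ifng was at 0 in members of every library.

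Zbtb16 encodes PLZF, the transcription factor of innate-like lymphocytes. It stood at 309, 758 and 519 CPM in members of replicates 1, 2 and 3, and at 3.67, 9.26 and 2.08 CPM in Cd4-positive T cells. The groups did not overlap, and the log2 fold change was 6.60 ± 0.35 (SE), with an adjusted p of 1.65e-05 by edgeR with Benjamini-Hochberg adjustment. A UMI was seen in 64.8% of members, in 2.66% of Cd4-positive T cells and in 3.69% of 10411 Csf1r-positive cells (2 or more Csf1r UMIs and no Cd3 UMI), which serve as a background for free RNA. Median depths were 3658, 4528 and 8535 UMIs, and with every cell thinned to 1000 UMIs the shares were 38.6%, 0.380% and 0.403%. Sox13, an HMG-box factor of the IL-17-making gamma-delta lineage, stood at 197, 269.7 and 229.9 CPM in members and had a single UMI in all Cd4-positive T cells. With 96 UMIs against 1 the ratio was 338, with a 95% counting interval of 59.2 to 13490.3, and the adjusted p was 0.000103 by edgeR with Benjamini-Hochberg adjustment. Sox13 was seen in 60.2% of members and 2.94% of the Csf1r-positive cells, and in 26.1% and 0.250% after thinning.

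Cd163l1 stood at 886, 1647 and 1572 CPM in members and at 22.0, 11.6 and 8.30 CPM in Cd4-positive T cells, with replicate 1 the lowest of the members and the highest of the Cd4-positive cells. The log2 fold change was 6.46 ± 0.38 (SE), which describes a marker that was given with these cells. Its neighbour 5830411N06Rik, also known as Scart2, stood at 169, 87.5 and 193 CPM against 0, 4.63 and 2.08 CPM, or 62 against 3 UMIs, a ratio of 72.8 (95% counting interval 23.8 to 363). The genes are related and lie on chromosome 7 with 16133 bases between them in GRCm38.p6, so reads of either could be assigned to the other. Clnk, an adaptor of the SLP-76 family, had the highest fitted fold change of the genes named here, at 379.6, 641 and 386 CPM in members against 0, 2.32 and 2.08 CPM, or 194 against 2 UMIs. The ratio was 342 (95% counting interval 93.3 to 2841), with an adjusted p of 1.65e-05 by edgeR with Benjamini-Hochberg adjustment.

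The other genes with the largest increases included cell surface and cytoskeletal genes. Itgae encodes the CD103 integrin chain that binds E-cadherin, and stood at 105, 219 and 178 CPM in members against 9.17, 9.26 and 2.08 CPM in Cd4-positive T cells. Its log2 fold change was 4.47 ± 0.48 (SE). Cdh10, a cadherin gene, was higher by 5.77 ± 0.46 (SE), the adhesion receptor gene Adgrg5 by 5.35 ± 0.58 (SE), the zinc finger gene Zfp462 by 4.78 ± 0.66 (SE) and the actin-binding coronin gene Coro2b by 4.33 ± 0.42 (SE) on the log2 scale. The adjusted p of these 5 genes by edgeR with Benjamini-Hochberg adjustment ran from 0.000194 for Cdh10 to 0.00392 for Zfp462. The 3 libraries of each class did not overlap for any of the 5. These genes were picked for large changes with 1 direction in all 3 libraries, so the lack of overlap is a description.

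Of 38 genes of a type 17 programme 30 could be tested, and 10 were higher, 1 was lower (0 by DESeq2) and 19 were not called, with a median log2 fold change of 0.39 against -0.01 for all genes tested. Over all tested genes 1.87% were called higher and 1.83% lower. The list was chosen with earlier results known and holds Cd163l1, so the count is no independent support. The Cd4-positive class also held no Il23r or Blk UMI by its definition, so T cells with either gene were left out of it. Il1r1, the signalling receptor for IL-1, stood at 260.1, 539 and 229.9 CPM against 62.4, 141 and 93.4 CPM, highest in replicate 2 in both classes, with a log2 fold change of 1.75 ± 0.24 (SE) and an adjusted p of 0.00392 by edgeR with Benjamini-Hochberg adjustment. Also higher were Serpinb1a, a protease inhibitor gene (log2 fold change 2.32), the water and glycerol channel gene Aqp3 (2.63), the alpha-actinin gene Actn2 (1.83) and Ltb4r1, a receptor for the neutrophil attractant leukotriene B4 (1.73). The gene that was lower was Rbpj, the DNA-binding partner of Notch, with a log2 fold change of -1.21 ± 0.27 (SE). Rbpj had a UMI in 43.2% of members, 61.6% of Cd4-positive T cells and 57.8% of the deeper Csf1r-positive cells. The part of RNA from other cells in this call was not tested.

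Several type 17 genes were not called. Ccr6, the receptor for the chemokine CCL20, stood at 70.3, 80.2 and 89.0 CPM in members against 45.8, 34.7 and 12.5 CPM in Cd4-positive T cells, which did not overlap. Its log2 fold change was 1.38 ± 0.46 (SE) with an adjusted p of 0.169 by edgeR with Benjamini-Hochberg adjustment. Il7r, the IL-7 receptor chain, stood at 232, 364 and 334 CPM against 147, 148 and 166 CPM, and its log2 fold change of 0.97 ± 0.23 (SE) was just under the fold limit at an adjusted p of 0.0481 by edgeR with Benjamini-Hochberg adjustment. Maf, a transcription factor gene of IL-17-making cells, gave 0.72 ± 0.22 (SE), and Rora 0.16 ± 0.18 (SE). Il18r1 gave -0.15 ± 0.28 (SE) and changed sign without replicate 1 and in members with an Il23r UMI. Cxcr6, a homing receptor of tissue T cells, was at 422, 488 and 482 CPM in members and 442, 370.4 and 386 CPM in Cd4-positive T cells, and its log2 fold change of 0.20 ± 0.20 (SE) turned to -0.27 after thinning.

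**Figure D2:**
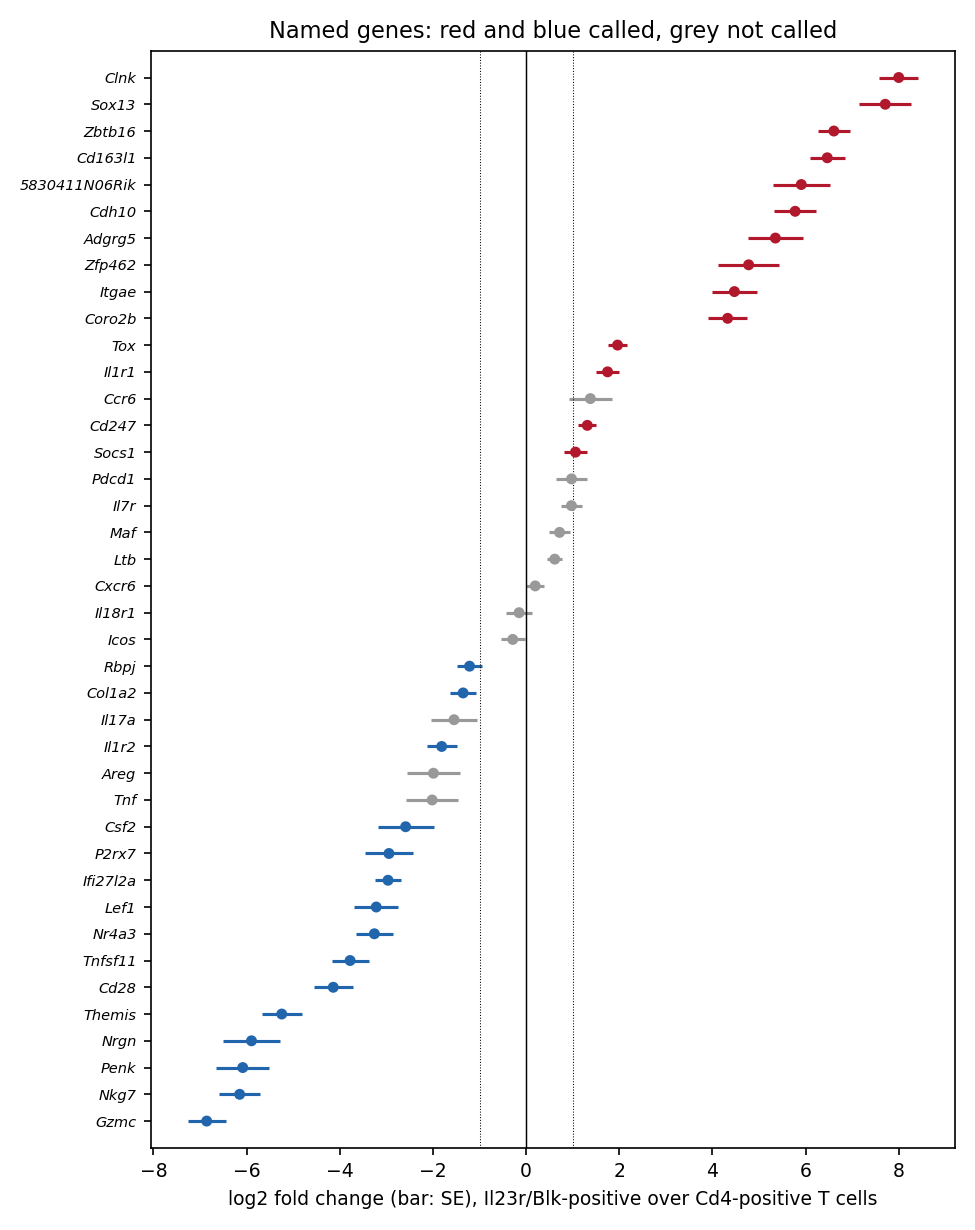
Log2 fold change of the named genes, Il23r/Blk-positive over Cd4-positive T cells, with its standard error as a bar; red points were called higher, blue points called lower and grey points not called, and dotted lines mark a change of 1 in either direction. Clnk at 8.00 and Sox13 at 7.71 stand at one end and Gzmc at -6.85 at the other; genes with 0 UMIs in members are left out, and fitted values of genes with 1 to 3 UMIs in either class depend on the prior count.

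Genes of T cell receptor signalling were split, where 1.87% of all tested genes were called higher and 1.83% lower. Of 16 listed genes 15 were tested, 1 was higher, 7 were lower and 7 were not called, with a median log2 fold change of -0.95 against -0.01 for all genes tested. Cd247 encodes the zeta chain of the receptor complex and was the gene that was higher, at 591, 853 and 734 CPM in members against 266, 282 and 307 CPM in Cd4-positive T cells. Its log2 fold change was 1.31 ± 0.19 (SE) with an adjusted p of 0.00483 by edgeR with Benjamini-Hochberg adjustment. Lck, the kinase that starts receptor signalling in conventional T cells, stood at 21.1, 51.0 and 29.7 CPM against 356, 285 and 421 CPM, a log2 fold change of -3.38 ± 0.35 (SE). It was seen in 9.09% of members and 74.9% of Cd4-positive T cells, and in 4.55% and 30.8% after thinning. Themis, which tunes receptor signals during thymic selection, stood at 14.1, 0 and 14.8 CPM against 379.6, 273 and 467 CPM and was not seen in members of replicate 2, a log2 fold change of -5.24 ± 0.43 (SE).

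The co-stimulatory receptor gene Cd28 stood at 7.03, 7.29 and 14.8 CPM in members against 145, 174 and 205 CPM in Cd4-positive T cells. Its log2 fold change was -4.14 ± 0.42 (SE) with an adjusted p of 0.000737 by edgeR with Benjamini-Hochberg adjustment, and 3 of 88 members held a UMI. Cd5 and Cd6, surface proteins that restrain receptor signalling, fell by 2.74 and 3.38 on the log2 scale, and the adhesion receptor gene Cd2 fell by 2.73. Ubash3a, which encodes a negative regulator, was also called lower, with 2 UMIs against 128, a ratio of 18.2 (95% counting interval 4.93 to 152). Values were closer for other genes of the same pathway that were not called, with log2 fold changes of 0.25 for the kinase gene Zap70, -0.41 for the scaffold gene Lat and -0.54 for the kinase gene Fyn.

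Type 1 and cytotoxic genes were low in members, where 1.83% of all tested genes were called lower. Of 21 listed genes 7 could be tested and 6 were lower, Id2 being the exception at -0.27, with a list median of -3.95 against -0.01 for all genes. DESeq2 called 5 of the 7 lower, and setting genes without UMIs in members to their bound left the median of this list, and of every other list, as it was. Ifng, the gene of interferon-gamma, had 0 UMIs in all 88 members, which allows a share of up to 3.41% of cells with a UMI, taking 3 cells as the limit of a count of 0. It stood at 596, 211 and 237 CPM in Cd4-positive T cells, highest in replicate 1, and was at least 50.2-fold lower in members, counting 3 UMIs over all members as the floor (20.3 without replicate 1). Il12rb2, the IL-12 receptor chain of type 1 cells, had 0 UMIs and was at least 11.7-fold lower (6.96 to 8.99 with 1 replicate left out). Nkg7, a gene of cytotoxic granules, had 2 UMIs in members and 544 in Cd4-positive T cells, a ratio of 77.2 (95% counting interval 21.3 to 639). Gzmc, a granzyme gene, had 2 against 849 UMIs, a ratio of 120.5 (33.3 to 997). Ctsw and Ccl5 fell by 4.10 and 2.83 on the log2 scale, and Tbx21, the type 1 master regulator T-bet, had 3 UMIs against 169, a ratio of 16.0 (5.38 to 78.3), which was 33.9 without replicate 1 and 10.3 without replicate 2.

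Other genes with the largest decreases were a mixed set. The chemokine gene Ccl1 had 0 UMIs in members and stood at 381, 120.4 and 967 CPM in Cd4-positive T cells, so it was at least 68.7-fold lower. Tff1, Gm8369 and St8sia1 also had 0 UMIs and were at least 10.5-, 6.63- and 5.96-fold lower. Penk, the proenkephalin gene, had 2 against 542 UMIs, a ratio of 76.95 (95% counting interval 21.2 to 637), and Nrgn had 3 UMIs in 1 member against 671, a ratio of 63.5 (21.6 to 309). Replicate 3 held 368 of the 542 Penk UMIs, and the ratio was 24.9 without it, 135 without replicate 1 and 123 without replicate 2. Without replicate 3 the ratio of Nrgn was 31.8 and the bound of Ccl1 24.8. The bounds of Tff1, Gm8369 and St8sia1 were 6.35 to 7.64, 3.78 to 4.77 and 3.67 to 4.14 with 1 replicate left out, which leaves fewer member UMIs behind each.

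No cytokine gene was called higher in members, where 1.87% of all tested genes were called higher and 1.83% lower. Of 27 listed cytokine genes 16 were tested by edgeR, 0 were higher, 5 were lower and 11 were not called, with a median log2 fold change of -1.64 against -0.01 for all genes. At an unadjusted p under 0.05 there were 1 higher and 9 lower, and DESeq2 called 0 higher and 4 lower. Il17a stood at 28.1, 58.3 and 37.1 CPM in members and at 25.7, 111 and 276 CPM in Cd4-positive T cells, where it varied more than 10-fold between libraries. Replicate 1 was higher in members and replicates 2 and 3 were lower, so the groups overlapped, and the log2 fold change was -1.55 ± 0.49 (SE) with an adjusted p of 0.148 by edgeR with Benjamini-Hochberg adjustment. An Il17a UMI was seen in 15 of 88 members, 9.51% of Cd4-positive T cells and 0.134% of Csf1r-positive cells. After thinning the shares were 2.27%, 3.42% and 0.0288%, so no order between members and Cd4-positive cells was read from them.

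Il17f, the close relative of Il17a, was too low to test, at 28.1, 21.9 and 14.8 CPM in members and 20.2, 4.63 and 2.08 CPM in Cd4-positive T cells. Il22, a cytokine that acts on epithelium, had 1 UMI in members, in replicate 1, against 19 in 2 Cd4-positive T cells of replicate 2, so no direction was read. Tnfsf11 encodes RANKL, the signal that makes osteoclasts, and stood at 7.03, 7.29 and 29.7 CPM in members against 114, 188 and 301 CPM, without overlap. Its log2 fold change was -3.78 ± 0.40 (SE) with an adjusted p of 0.000785 by edgeR with Benjamini-Hochberg adjustment, from 6 UMIs in 5 members. Csf2, the gene of the growth factor GM-CSF, was lower at a log2 fold change of -2.59 ± 0.60 (SE) from 4 UMIs, and Tnfsf8, the ligand of CD30, at -2.95 ± 0.33 (SE). Tnf was not called, at 7.03, 65.6 and 111 CPM in members and 326, 259 and 158 CPM in Cd4-positive T cells. Ltb, a chain of lymphotoxin, stood at 1244, 1203 and 1001 CPM in members and was not called, with a log2 fold change of 0.61 ± 0.16 (SE). Areg, an epidermal growth factor family gene, was not called at -1.99 ± 0.57 (SE).

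Counting UMIs across whole libraries placed these genes among all cells. Members were 0.227% of all cells and held 564 of 1055 Cd163l1 UMIs, or 53.5% (50.8%, 52.9% and 55.8% in replicates 1, 2 and 3). They held 36.9% of the 168 5830411N06Rik UMIs, 45.3% of Blk, 31.7% of Il23r and 10.7% of Pdcd1, where the shares of Blk and Il23r follow from the rule. Of 409 Il17a UMIs members held 17, or 4.16% with an exact 95% interval of 2.44% to 6.57%, and Cd4-positive T cells held 195 (14, 48 and 133 in replicates 1, 2 and 3). A further 90 (42, 33 and 15) lay in the 124 cells that passed the Cd3 and Il23r/Blk steps but held an excluded gene. These left-out cells held more Il17a UMIs than Cd4-positive T cells in replicate 1 and fewer in replicates 2 and 3. Without replicate 3 the share in Cd4-positive T cells moved from 47.7% to 29.0% and that in left-out cells from 22.0% to 35.0%. Of 100 Il17f UMIs members held 9, and those left-out cells held 46, of which 34 lay in replicate 1. Without that replicate the members' share was 14.3%. Of 3949 Tnfsf11 UMIs members held 6 (0.152%, or 0.0767% without replicate 3), and of 897 Ifng UMIs 0. Intervals cover counting error only.

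**Figure D3:**
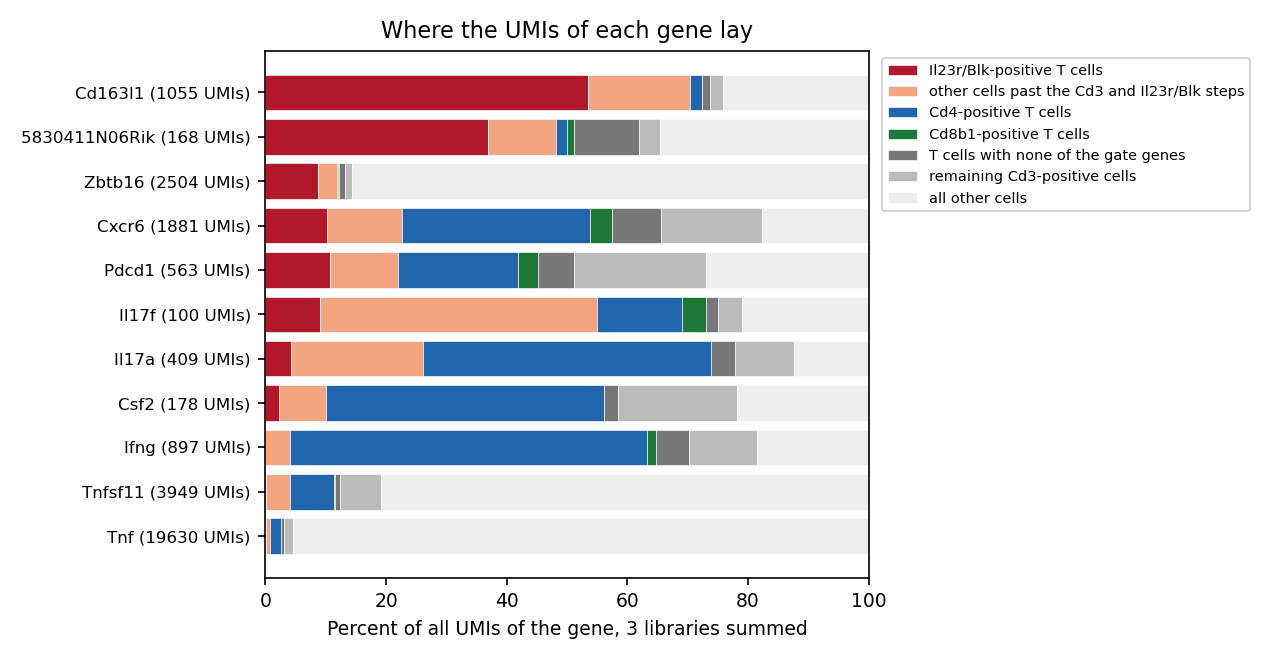
Share of all UMIs of each gene, 3 libraries summed, that lay in Il23r/Blk-positive T cells and in the other classes, as percent on the horizontal axis with the total in brackets. Members held 53.5% of Cd163l1 UMIs but 4.16% of Il17a and 0 of Ifng UMIs.

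Checkpoint, receptor and homing lists each held calls in both directions, where 3.71% of all tested genes were called. Of 14 tested co-stimulation and checkpoint genes Tox was higher and Cd28, Ctla4, Tnfrsf4 and Tnfrsf18 were lower, with 9 not called. Tox, an HMG-box factor gene, stood at 309, 569 and 638 CPM in members against 77.0, 139 and 168 CPM in Cd4-positive T cells, a log2 fold change of 1.96 ± 0.21 (SE) with an adjusted p of 0.000785 by edgeR with Benjamini-Hochberg adjustment. Pdcd1, the gene of the checkpoint receptor PD-1, was not called at 0.98 ± 0.32 (SE), and Icos was not called at -0.29 ± 0.26 (SE). Of 22 tested cytokine receptor genes Il1r1 was higher and Il12rb2, Il2rb and Il1r2 were lower, and of 15 homing genes Itgae was higher and P2rx7 and Rgs1 lower. P2rx7 had a UMI in 4.55% of members, 26.2% of Cd4-positive T cells and 23.4% of Csf1r-positive cells. DESeq2 called 1 higher and 2 lower in each of the checkpoint and receptor lists, and 1 higher and 0 lower of the homing genes. Il1r2 encodes the decoy IL-1 receptor and is also a neutrophil gene, with 28.1, 138 and 89.0 CPM in members against 240.2, 349.6 and 255 CPM. Neutrophil markers summed to 2505 to 11113 CPM in Cd4-positive T cells and 2819 to 22719 CPM in members, and their part in the Il1r2 result was not tested.

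Of 10 tested naive and central T cell genes 3 were lower, among them Lef1, a factor of naive T cells, at -3.22 ± 0.47 (SE), and DESeq2 called 2. Of 17 activation and immediate early genes Nr4a1, Nr4a2 and Nr4a3 were lower, Nr4a3 at 35.2, 7.29 and 29.7 CPM against 199.9, 248 and 247 CPM in Cd4-positive T cells, and DESeq2 called 2 genes of this list. The 3 genes are induced by antigen receptor signals. Of 10 interferon-stimulated genes Ifi27l2a was lower at a log2 fold change of -2.96 ± 0.27 (SE), and of 17 genes of the IL-23 and NF-kB response Socs1, an inhibitor of cytokine signalling, was higher by 1.06 ± 0.25 (SE), which DESeq2 did not call. Ifi27l2a had a UMI in 12.5% of members, 66.9% of Cd4-positive T cells and 58.9% of Csf1r-positive cells. By edgeR 0 of 17 glycolysis, 0 of 12 proliferation, 0 of 11 lipid and 0 of 2 type 2 genes were called. Only 3.71% of all tested genes were called, so 0 calls in lists this short do not show a lack of change. At an unadjusted p under 0.05 these lists held 4, 3, 0 and 1 lower and 0, 0, 2 and 0 higher genes, and DESeq2 called 0 in each. Mki67, a gene of dividing cells, was seen in 18.2% of members, 17.9% of Cd4-positive T cells and 11.6% of Csf1r-positive cells, or 4.55%, 4.94% and 1.75% after thinning.

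Of the tested markers of other cell types, the fibroblast gene Col1a2 was lower at a log2 fold change of -1.35 ± 0.27 (SE) in members, where fibroblast markers summed to 4099, 4453 and 13687 CPM against 11568, 10548 and 10201 CPM in Cd4-positive T cells. The number of calls depended on replicate 2. Without it 32 genes were called and without the others 155 and 200, while 178 genes had been called with all 3. Among the 32 were Cd163l1, Zbtb16, Sox13, Clnk, Tnfsf11, Ifng, Themis and Cd28. After thinning to 1000 UMIs and equal cell numbers only 376 genes could be tested and 23 were called.

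The second comparison set members against the 212 T cells with Cd3 UMIs and none of the other gate genes, whose median depth is nearer to that of members (3354 and 3658 UMIs). Members again carried more Cd163l1, Sox13 and Zbtb16 RNA, and less RNA of the cytotoxic genes Gzma, Nkg7 and Ccl5. Of 3581 genes tested 142 (3.97%) were called by the same edgeR test, 68 higher (1.90%) and 74 lower (2.07%), and 141 of them had 1 direction in all 3 libraries. This comparison shares the members' libraries with the first, so the calls of both are not independent.

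In these T cells Sox13 stood at 1.80, 4.95 and 3.51 CPM and Zbtb16 at 19.8, 14.9 and 24.5 CPM, each below members in every library. Their log2 fold changes were 5.77 ± 0.45 (SE) and 4.44 ± 0.37 (SE), with adjusted p-values of 0.000720 and 0.000721 by edgeR with Benjamini-Hochberg adjustment. Cd163l1 stood at 12.6, 0 and 21.0 CPM, also below members in every library. Its log2 fold change of 6.72 ± 0.59 (SE) describes a marker that was given with the members. The type 17 list gave 12 higher (9 by DESeq2), 0 lower (0 by DESeq2 and 1 at an unadjusted p under 0.05) and 17 not called of 29 tested, with a median log2 fold change of 1.24 against -0.02 for all genes. Over all tested genes 1.90% were called higher and 2.07% lower. The gate-gene-negative T cells held no Il23r or Blk UMI by definition, so this count is no independent support either. Among the 12 were Il17re, a chain of a receptor for IL-17C (2.05), Il1r1 (2.43), Actn2 (2.41), Rora (1.24), Ckb, a creatine kinase gene (1.66), and Cxcr6 (1.82). Cxcr6 stood at 146, 57.0 and 168 CPM in these cells. Ccr6, Il7r, Maf, Icos, Il18r1 and Tnf were not called, with log2 fold changes of 1.21, 1.24, 1.35, 0.92, 0.60 and -0.62.

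Other genes that were higher than in the gate-gene-negative T cells included Cdh10 by 5.13 ± 0.61 (SE), Coro2b by 4.59 ± 0.43 (SE), Clnk by 3.85 ± 0.29 (SE) and Itgae by 3.01 ± 0.35 (SE). Ppp1r14c, an inhibitor of a protein phosphatase, was higher by 4.43 ± 0.52 (SE), the transcription factor gene Arnt2 by 3.67 ± 0.43 (SE) and the glycosyltransferase gene Large by 3.56 ± 0.39 (SE). Pdcd1 was called here, at 25.2, 17.3 and 45.6 CPM against 183, 117 and 133 CPM in members, with a log2 fold change of 2.18 ± 0.38 (SE) and an adjusted p of 0.0187 by edgeR with Benjamini-Hochberg adjustment. Ltb, Cd247, Zap70, Itgb7 and Bcl11b were also higher, by 1.34, 1.81, 1.34, 1.55 and 1.32, and Gbp4, an interferon-induced GTPase gene, by 1.98 on the log2 scale. Some of these calls were not stable: Bcl11b was lost in 6 of 13 alternatives, Gbp4 in 6 of 12 and Ltb in 5 of 13, and DESeq2 called neither Bcl11b nor Gbp4. General T cell genes were also lower on average in the gate-gene-negative T cells, with mean Cd3g at 379 CPM against 950 in members. Mean Cd3d was 392 against 529 CPM and mean Cd3e 251 against 368 CPM, though in replicate 3 Cd3d was 463 against 415 CPM. The part of this difference in the calls of other T cell genes, such as Cd247, Zap70 and Bcl11b, was not tested.

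Of 8 tested type 1 and cytotoxic genes 6 were lower (5 by DESeq2). Over all tested genes 1.90% were called higher and 2.07% lower. Gzma, a granzyme gene, had 1 UMI in members against 389, a ratio of 129 (95% counting interval 23.1 to 5126), which was 80.0 without replicate 2 and at least 24.2 without replicate 1, where members held 0, and Nkg7 had 2 against 428, a ratio of 71.2 (19.6 to 590). Ccl5, a chemokine gene of cytotoxic cells, stood at 21.1, 21.9 and 51.9 CPM in members against 780.4, 1001 and 957 CPM, a log2 fold change of -5.04 ± 0.36 (SE), and the protease gene Ctsw was lower at -3.87 ± 0.54 (SE). NK cell markers summed to 243, 66.9 and 102 CPM in the gate-gene-negative T cells and all 8 were seen there, while 7 of 8 were at 0 in members, and their part in these results was not tested. Of 14 T cell receptor signalling genes, Cd247 and Zap70 were higher (1 higher by DESeq2) and Lck, Cd28, Themis and Cd2 lower, Lck at 194, 173 and 347 CPM against 21.1, 51.0 and 29.7 CPM in members. Cytokine genes gave 1 higher and 1 lower of 9 tested, Ltb and Ccl5. Il17a, Il17f, Csf2, Tnfsf11 and Ifng were too low to test, with Il17a at 5.39, 2.48 and 42.1 CPM and Ifng at 8.99, 37.2 and 105 CPM in these cells. Il17f had 9 UMIs in members against 2, a ratio of 13.5 (95% counting interval 2.80 to 129).

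Further genes that were lower were Lef1, Cd28, Themis and Ifi27l2a, with log2 fold changes of -3.15 ± 0.56 (SE), -3.31 ± 0.50 (SE), -4.32 ± 0.60 (SE) and -1.67 ± 0.35 (SE). Gramd3 had 1 UMI in members against 130, a ratio of 43.3 (95% counting interval 7.63 to 1722), which was 23.6 without replicate 3 and at least 10.5 without replicate 2, where members held 0. Inhba had 2 against 87, a ratio of 14.5 (3.89 to 121, and at least 5.05 without replicate 3, where members held 0), Pcsk5 2 against 100, a ratio of 16.6 (4.49 to 139), and Setbp1 had 0 and was at least 8.87-fold lower (5.27 to 6.70 with 1 replicate left out). Hbb-bs, a haemoglobin gene, stood at 1210.2, 1412 and 38.6 CPM in the gate-gene-negative T cells and at 35.2, 72.9 and 29.7 CPM in members. The classes overlapped, since replicate 3 was low in both. The same held for the neutrophil gene Retnlg, at 1237, 1714 and 59.6 CPM against 169, 532 and 59.3 CPM, while Col1a2 was lower at a log2 fold change of -2.21 ± 0.36 (SE). Erythroid markers summed to 70.1 to 4359 CPM there against 66.7 to 117 CPM in members, fibroblast markers to 16717 to 32243 CPM against 4099 to 13687 CPM, and neutrophil markers to 2718 to 50541 CPM against 2819 to 22719 CPM. The part of such RNA in the calls was not tested. By edgeR 0 of 16 IL-23 and NF-kB response genes, 0 of 14 immediate early genes, 0 of 17 glycolysis genes, 0 of 9 proliferation genes, 0 of 6 lipid genes and 0 of 1 type 2 genes were called. The share over all tested genes was 3.97%, so 0 calls in lists this short do not show a lack of change. At an unadjusted p under 0.05 these lists held 2, 0, 0, 0, 0 and 0 higher and 0, 4, 3, 1, 1 and 0 lower genes, and DESeq2 called 0 in each. Cytokine receptors gave 2 higher and 0 lower of 17, homing genes 3 and 0 of 13, co-stimulation genes 2 and 1 of 11, naive genes 1 and 1 of 9 and interferon-stimulated genes 1 and 1 of 10. DESeq2 called 1 and 0 cytokine receptors, 3 and 0 homing genes, 2 and 1 co-stimulation genes, 0 and 2 naive genes and 0 and 0 interferon-stimulated genes.

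The number of calls in the second comparison moved with every library, to 26 without replicate 2, 73 without replicate 1 and 237 without replicate 3. Scaling by library totals in place of TMM gave 151 higher and 105 lower genes, and it moved the median change over all tested genes from -0.02 to 0.16 on the log2 scale.

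The 59 Cd8b1-positive T cells gave sums of 19, 18 and 22 cells, and values are given with no test. Members held 0 UMIs of Cd8a, the partner of the gene the rule excludes. Cd163l1 was at 0 in Cd8b1-positive T cells of every library, and so was Il17a. Nkg7 stood at 1428, 1129.9 and 1137 CPM, Ccl5 at 3983, 2595 and 3474 CPM and Lck at 363, 345 and 437 CPM there, all above members in every library. Adgrg5 was seen in both classes, at 211, 117 and 133 CPM in members and 110.4, 105 and 136 CPM in Cd8b1-positive T cells.

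Members were not uniform, and Cd163l1 and 5830411N06Rik were mostly seen in different cells. Cd163l1 alone was found in 57 members, 5830411N06Rik alone in 19, both in 4 and neither in 8. 5830411N06Rik was held by 6.56% of the Cd163l1-positive members and by 70.4% of the others. The cells with Cd163l1 alone numbered 14, 20 and 23 in replicates 1, 2 and 3, and those with 5830411N06Rik alone 7, 4 and 8. Their median depths were 3608 and 3579 UMIs. The split was chosen after the values were seen, rests on genes of the same cells and is given without a test.

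**Figure D4:**
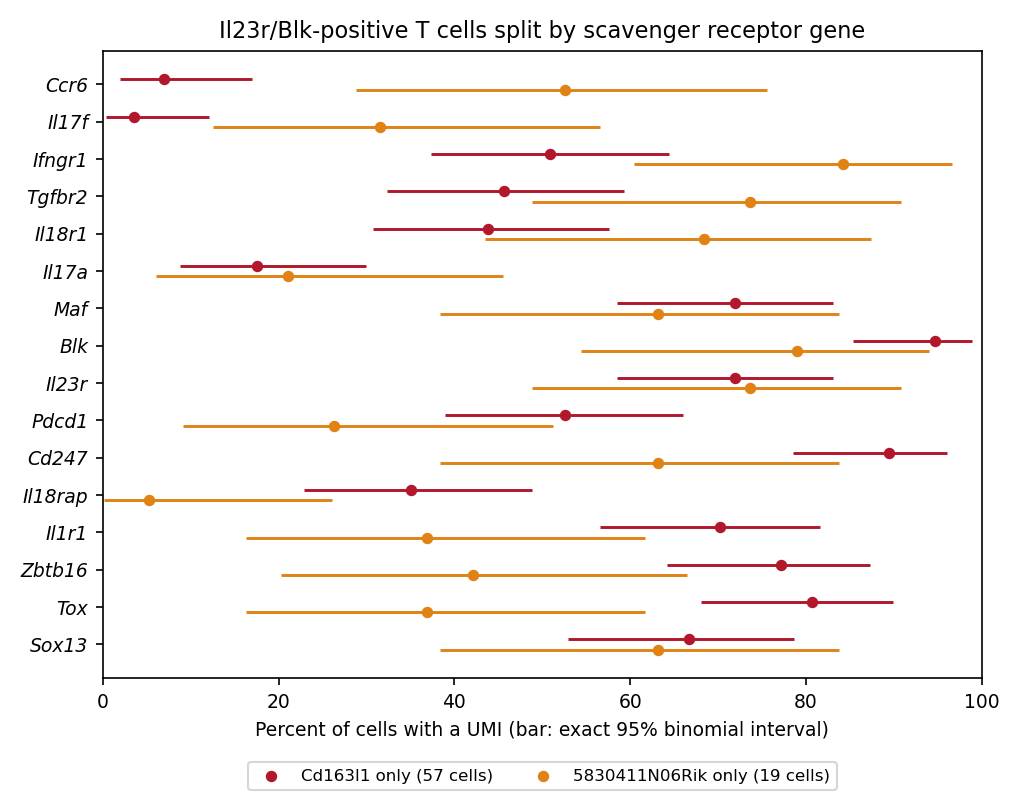
Percent of cells with a UMI of each gene among the 57 members with Cd163l1 alone and the 19 with 5830411N06Rik alone; bars are exact 95% binomial intervals, which cover counting error only. Ccr6 was seen in 7.02% and 52.6% of the cells, and Tox in 80.7% and 36.8%.

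Ccr6 was seen in 4 of 57 members with Cd163l1 alone and in 10 of 19 with 5830411N06Rik alone, where it came from 3, 2 and 5 cells of replicates 1, 2 and 3. Il17f was seen in 2 and in 6 cells (3.51% and 31.6%), while Il17a was seen in 17.5% and 21.1%. Zbtb16 was seen in 77.2% of the first cells and 42.1% of the second, Tox in 80.7% and 36.8%, and Il1r1 in 70.2% and 36.8%. Il18rap, a chain of the IL-18 receptor, was seen in 35.1% and 5.26%. Ifngr1, a chain of the interferon-gamma receptor, went the other way with 50.9% and 84.2%. Sox13 at 66.7% and 63.2%, Maf at 71.9% and 63.2% and Il23r at 71.9% and 73.7% were closer, with intervals that overlapped. The intervals of Il17a, Zbtb16, Il1r1, Il18rap and Ifngr1 overlapped as well, and those of Ccr6, Tox and Il17f did not. Among the 998 other Cd3-positive cells 50 held Cd163l1 alone, 21 held 5830411N06Rik alone and 3 held both, with Ccr6 in 9 of the first kind and 4 of the second.

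The gene that admitted a cell also went with other genes. Cd163l1 was seen in 80.0% of the 50 members with both Il23r and Blk, in 75.0% of the 24 with Blk alone and in 21.4% of the 14 with Il23r alone. Sox13 was seen in 64.0%, 79.2% and 14.3%, Zbtb16 in 38, 12 and 7 cells, and Il17a in 12, 2 and 1. Ccr6 was seen in 8, 4 and 5 cells, and the B cell gene Cd79b in 2, 5 and 2. Median depths were 3670.0, 3598.5 and 3638.5 UMIs.

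The exclusions of the rule left out 124 of 212 T cells with an Il23r or Blk UMI, 92 of them with a Cd4 UMI and 54 with a Csf1r UMI. Of 56 left out for Cd4 alone 5.36% held Cd163l1 and 1.79% Zbtb16. Of 24 left out for Csf1r alone 58.3% held Cd163l1 and 75.0% Zbtb16, at a median of 11277 UMIs. Csf1r encodes a receptor of macrophages. These cells were deeper than members at 3658 UMIs, and the part of depth in their Csf1r UMIs was not tested. With Csf1r allowed there were 112 members, 0.291% of cells, and 187 genes were called against Cd4-positive T cells. Against the gate-gene-negative T cells 606 genes were then called, of which 117 were among the 142 called before. Without the 3 members above 10000 UMIs, and with the same limit on all cells, 250 and 177 genes were called.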

How the data were processed

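UMI counts per gene and barcode were deposited, in matrices made by PISA 1.0 per the file headers. Libraries came from the DNBelab C kit and a DNBSEQ-T7 sequencer, per the labels' protocols. Seurat 3.0.2, R 3.6 and GRCm39 (mm39) stand in the submitters' processing notes. An aligner and an annotation were not stated there (not given in the sources used here). The labels give 11111, 10668 and 14363 cells, while the matrices held 11939, 11602 and 15263 barcodes, of which 20, 41 and 21 fell to the filters on genes and mitochondrial UMIs. No kept barcode had under 1000 UMIs. Scrublet scores (scanpy 1.11.5, expected doublet rate 6%) were computed, and high-scoring cells stayed in the main values.

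For each library, UMIs of the cells of 1 class were added up. Sums of 20 or more cells entered edgeR 4.0.16 (R 4.3.3; filterByExpr, TMM, two-sided quasi-likelihood F-test), a test tried on simulated counts first. The library was a block because both of its sums come from the same 2 pooled mice. Deviations from class means correlated within libraries by 0.0995 to 0.184 against Cd4-positive T cells and by 0.0309 to 0.198 in the second comparison. With the library as a block, p-values reflect how the difference between classes varied over the 3 libraries of pooled mice, together with counting error. They do not measure spread between single mice. CPM use all UMIs of the class as denominator, whereas fold changes are TMM-scaled. DESeq2 1.42.0 was an alternative.

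Genes named in the text were a fixed set given whatever the test showed, the largest called change of each list and direction, and the 10 largest in each direction, at 10 CPM or more and with 1 direction in all libraries. Other list genes are examples named after their values were seen, and a few list genes are counted but not reported here by name. Members, lists and this rule were chosen with earlier results of these data known. Intervals are exact binomial and cover counting error only.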

Additional observations from a re-analysis of the deposited data

How the results depend on the processing

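With 88 cells in 3 libraries, the number of genes called changed with the processing. Against Cd4-positive T cells (178 calls), DESeq2 called 112, a test without a filter on low counts 378, and cells thinned to 1000 UMIs in equal numbers 23. Leaving out 1 replicate gave 32 to 200. Without the replicate block 235 were called, 176 of them among the 178. Against the gate-gene-negative T cells (142 calls, 47.9% of them higher), library totals as scaling gave 256 (59.0% higher), no filter 475, no replicate block 217, thinning 12, Scrublet scores under 0.2 308 and Csf1r allowed 606, and leaving out 1 replicate 26 to 237. DESeq2 gave 119, of which 36.1% were higher.

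The share of members among barcodes, 0.228%, was 0.212% with 3 Cd3 UMIs required, 0.167% with an Il23r UMI required, 0.291% with Csf1r allowed and 0.301% among cells of at most 10000 UMIs. Their share of Cd3-positive cells, 8.16%, was 5.94%, 10.4% and 10.1% under the last 3. Of the shares of a gene's UMIs held by members, 10 moved beyond their counting interval.

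Signs turned only for genes that were not called, among the named genes. Against Cd4-positive T cells Cxcr6 turned to -0.27 after thinning, and Il18r1 to 0.16 without replicate 1 (-0.49 to 0.16 leaving out 1 replicate) and 0.12 with an Il23r UMI required. Against gate-gene-negative T cells Tnf turned to 0.12 with Csf1r allowed. Clnk, Zbtb16 and the given marker Cd163l1 stayed called in all 13 alternatives of both comparisons, and Sox13, Cdh10 and Coro2b in the 12 that could test them. Against Cd4-positive T cells Socs1 was lost in 7 of 12, Rbpj in 6, Csf2 in 4 of 10, Col1a2 in 4 of 13, P2rx7 and Il1r2 in 2 of 12, and Il1r1, Itgae, Lef1, Cd247, Il12rb2, Tff1, Gm8369, St8sia1 and Zfp462 in 1 each. Against gate-gene-negative T cells Bcl11b was lost in 6 of 13, Gbp4 in 6 of 12, Ifi27l2a in 5 of 12, Ltb in 5 of 13, Lef1 and Retnlg in 3 of 12, Col1a2 in 3 of 13, Cd28 and Pdcd1 in 2 of 12, Cd247 in 2 of 13, Pcsk5 in 2 of 9, and Cxcr6, Il1r1, Hbb-bs, Inhba and Setbp1 in 1 each. Without replicate 2 alone, 16 named genes lost their call in each comparison. The cause was not tested. The limit of 10000 UMIs and the allowance of Csf1r were chosen after seeing the data. Comparisons with Cd8b1-positive T cells were not run, since 2 sums held under 20 cells. At these depths a gene at 0 UMIs in members could still lie at up to 7.24 CPM.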
